A study of Mus musculus with 4 samples.

Results

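The tubulin genes of mouse blastocysts were described here through 10 genes chosen by name: the alpha-tubulins Tuba1a, Tuba1b, Tuba1c and Tuba4a, the beta-tubulins Tubb5, Tubb2a, Tubb2b, Tubb3 and Tubb6, and the gamma-tubulin Tubg1. They are 10 of the 20714 gene symbols measured in both assays, and each has 1 row in every library. The series holds 4 libraries of wild-type, untreated blastocysts, 2 of RNA-seq (Smart-seq2 on polyadenylated mRNA) and 2 of Ribo-seq (Ribo-lite, which sequences ribosome-protected fragments, or RPFs). The protocol names superovulated C57BL/6J females, 4 weeks old, and PWK/PhJ males, while the strain label reads C57BL/6N x PWK. Embryos were taken at the 8-cell stage and grown in KSOM medium to blastocysts, the zona was removed with acidic Tyrode's solution, and cells for Ribo-seq were lysed with cycloheximide. There is no second condition, so the comparison the design allows is RPF against mRNA. Every value is for whole blastocysts, with both parental alleles summed, and fewer cells of a type and less RNA per cell cannot be told apart. No source used here says whether the libraries of an assay came from separate pools of embryos, so their spread may be technical.

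Alpha- and beta-tubulin pair into the dimer that polymerises into microtubules, the tracks of cell transport and the fibres of the mitotic spindle, and gamma-tubulin sits in the ring complex that starts new microtubules. Mammals encode each class in several genes, called isotypes, whose proteins are alike over most of their length and differ mainly in the acidic tail at the carboxy terminus. Cells also tune tubulin output: when free dimers accumulate, tubulin mRNAs are degraded as they are translated, a process that reads the first residues of the new chain through the factor TTC5.

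The coding sequences of the genes show how far a short read can tell them apart. All positions are from NCBIM37, the build the study calls mm9, and the transcripts from GENCODE vM1. Tuba1b (chr15:98761856-98764996), Tuba1a (chr15:98780272-98783982) and Tuba1c (chr15:98860322-98868536) lie next to each other, Tuba1a and Tuba1b on the minus strand and Tuba1c on the plus strand, with 4 exons each. Tuba4a lies at chr1:75211549-75215828 on the minus strand. Over the whole coding sequence, Tuba1a and Tuba1b differed at 23 of 1356 bases and 2 of 451 residues. Tuba1b and Tuba1c differed at 22 of 1350 aligned bases and 6 of 449 aligned residues. Tuba4a stood farther off, with 194 of 1347 bases differing from Tuba1b but 14 of 448 residues.

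Tubb2a (chr13:34166170-34169877) and Tubb2b (chr13:34218877-34222223) are neighbours on the minus strand. Tubb5 lies at chr17:35970871-35975251 on the minus strand and Tubb3 at chr8:125935324-125945915 on the plus strand, again with 4 exons each. The first 45 coding bases of these beta genes, which encode the start of the chain that TTC5 reads, are shown 5′ to 3′ with capitals at each base that differs from Tubb5:
Tubb5: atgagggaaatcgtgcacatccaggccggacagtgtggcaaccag
Tubb3: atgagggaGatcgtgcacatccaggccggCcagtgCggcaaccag
Tubb2a: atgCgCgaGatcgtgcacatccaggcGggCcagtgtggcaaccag
Tubb2b: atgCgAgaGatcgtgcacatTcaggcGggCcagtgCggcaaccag
The last 60 coding bases, which encode the acidic tail, are shown for the Tubb2 pair, whose levels are compared in what follows, with the stop codon in capitals:
Tubb2a: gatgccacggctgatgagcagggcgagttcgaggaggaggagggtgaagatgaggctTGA
Tubb2b: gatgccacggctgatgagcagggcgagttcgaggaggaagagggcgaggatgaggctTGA
Tubb2a and Tubb2b differed at 47 of 1338 coding bases and 2 of 445 residues. Tubb5 was 80.7 to 84.8% identical in coding sequence to the other beta genes listed. Tubg1 (chr11:100981252-100987733, plus strand, 11 exons) was 93.3% identical to its neighbour Tubg2.

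Cut into windows of 28 bases, close to the size of a footprint, the genes fell into those that are mostly shared and those that are mostly their own. Of the coding windows of Tuba1a, 81.3% occurred exactly in another protein-coding gene, as did 90.7% for Tuba1b and 92.4% for Tuba1c. For Tubb2a and Tubb2b the share was 62.9% each, all of it with one another, and for Tubg1 32.96%, all with Tubg2. Tuba4a had 2.197%, Tubb5 3.98%, Tubb3 6.49% and Tubb6 6.99%. The RNA-seq values rest on the whole transcript. There 29.8% of the 28-base windows of Tuba1b were its own, with 33.3% for Tuba1a and 37.3% for Tuba1c. With windows of 50 bases it was 35.4% for Tuba1b, 42.9% for Tuba1a and 40.0% for Tuba1c. Both window sizes are below the 200 bases assumed for RNA-seq fragments. These shares count protein-coding genes alone, and the whole genome holds further copies of many windows. Among coding windows that do not span an exon junction, those of the Tuba1 genes had a median of 8 exact places in the genome. For Tuba1a 6.85% of such windows were at 1 place, with 2.82% for Tuba1b and 5.53% for Tuba1c. The share at 1 place was 26.9% for Tubb2a and 22.01% for Tubb2b, but 93.9% for Tubb5 and 88.8% for Tuba4a.

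**Figure D1:**
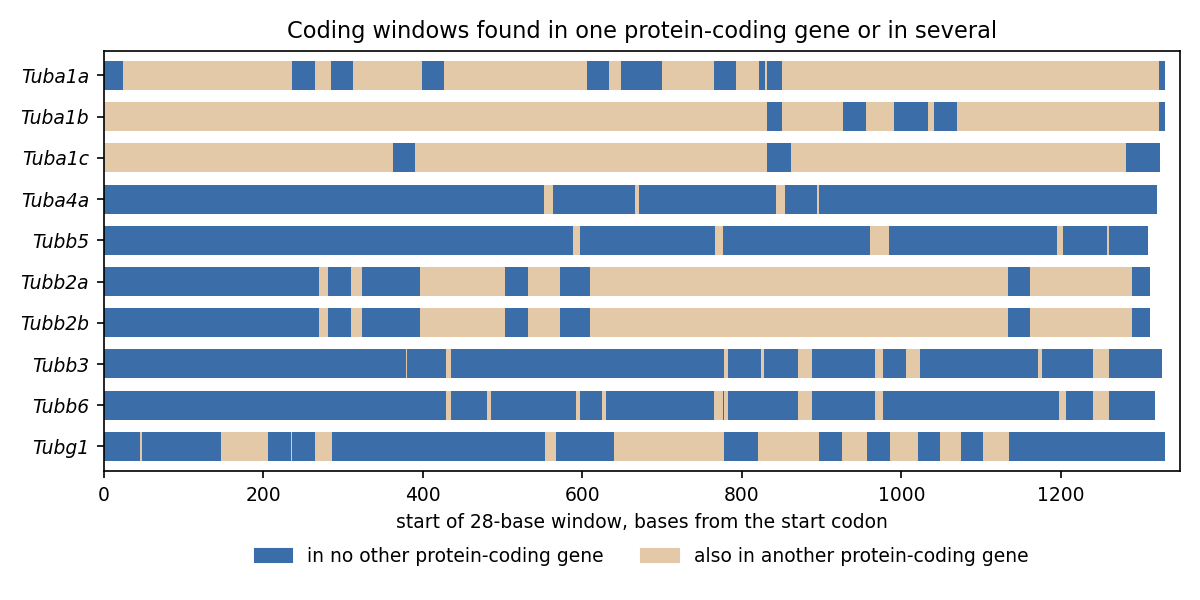
Each row is the coding sequence of 1 tubulin gene, drawn by the start of each 28-base window in bases from the start codon (x axis); blue windows occur in no other protein-coding gene and tan windows also in another one. Tuba1a, Tuba1b and Tuba1c are tan over 81.3 to 92.4% of their windows, Tubb2a and Tubb2b over 62.9%, and Tubb5 and Tuba4a over 3.98 and 2.197%.

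Depth and sample identity were checked first. The unit is FPKM, fragments scaled by gene length and by the fragments mapped in the library, so a level is already divided by length and can be set beside that of another gene in the same library. The steps between low values implied about 5177428 and 5459536 fragments in the RNA-seq libraries and 484125 and 533529 in the Ribo-seq libraries. A count of 3 fragments in a coding sequence of tubulin length then corresponds to 4.87 to 5.46 FPKM in Ribo-seq. The 2 libraries of an assay had a Spearman correlation across genes of 0.940 in RNA-seq and 0.898 in Ribo-seq. Of 5 trophectoderm markers all 5 were above 0 in every library, with summed levels of 2746 to 3008 FPKM in mRNA and 5240 to 5669 FPKM in RPF. All 4 epiblast markers were above 0 in every library (57.7 to 141.3 FPKM in mRNA, 699 to 815 FPKM in RPF), as were 2 of 4 primitive endoderm markers (9.34 to 12.5 FPKM in mRNA, 143 to 154 FPKM in RPF). Oocyte markers summed to 1.92 FPKM or less, with 3 of 5 at 0 in all 4 libraries, and the 4 cumulus cell markers were at 0 throughout.

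Among the alpha-tubulins, Tuba1b, a ubiquitous isotype, had the most mRNA of all 10 genes, at 277.3 and 413.1 FPKM in the RNA-seq libraries, and 267.4 and 282.0 FPKM in the Ribo-seq libraries. Its mRNA exceeded that of 98.6 and 98.9% of genes, and its RPF level that of 95.7 and 95.9%. Tuba1c was measured at 153.2 and 247.8 FPKM in mRNA and at 326.3 and 333.9 FPKM in RPF, where it led the alpha class. Tuba1a, the isotype best known from developing neurons, had mRNA levels of 63.3 and 97.9 FPKM and RPF levels of 230.0 and 247.9 FPKM. In mRNA the 3 genes were far apart, Tuba1b being 4.38 and 4.22 times Tuba1a. In RPF they stood close together, and Tuba1b was 1.163 and 1.138 times Tuba1a. Tuba4a, known as the alpha isotype that is encoded without the terminal tyrosine, had mRNA of 36.3 and 27.0 FPKM and RPFs of 61.6 and 75.3 FPKM. It was the lowest of the 4 listed alpha genes in every library.

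Between the RNA-seq libraries the 3 Tuba1 genes varied alike, while Tuba4a went the other way, at -0.41 on the log2(FPKM + 1) scale. Tuba1a, Tuba1b and Tuba1c were all higher in the second RNA-seq library, by 0.62, 0.57 and 0.69 on the log2(FPKM + 1) scale. The central 90% of genes with at least 10 FPKM ran from -0.58 to 0.65 in that difference, so Tuba1c lay beyond this range and Tuba1a and Tuba1b near its edge. In Ribo-seq the same 3 genes differed by 0.11, 0.08 and 0.03, and Tuba4a by 0.29. There the central 90% of genes with at least 10 FPKM ran more widely, from -1.46 to 1.29.

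Among the beta-tubulins, Tubb5, the broadly expressed isotype of dividing cells, was measured at 194.3 and 246.3 FPKM in mRNA and at 564.1 and 466.7 FPKM in RPF. It had the highest RPF level of the 10 genes in both Ribo-seq libraries. Tubb2a and Tubb2b, both best known from neurons, parted in mRNA: Tubb2a had 13.97 and 8.43 FPKM and Tubb2b 1.93 and 1.55 FPKM. Their RPF levels were alike, at 32.1 and 27.2 FPKM for Tubb2a and 35.4 and 29.6 FPKM for Tubb2b. The ratio of Tubb2a to Tubb2b was thus 7.23 and 5.45 in mRNA and 0.907 and 0.918 in RPF. Tubb6, a minor isotype in most tissues, had mRNA of 4.83 and 11.9 FPKM and RPFs of 29.9 and 16.2 FPKM. Its second library differed from its first by 1.144 in mRNA and -0.84 in RPF on the log2(FPKM + 1) scale.

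Tubb3, the marker of neurons known as class III beta-tubulin, was at the limit of detection. Its mRNA was 0.236 and 0.125 FPKM, both below the 0.330 and 0.347 FPKM that 3 fragments would give. Its RPF level was 8.26 FPKM in the first Ribo-seq library and 2.69 FPKM in the second, where 3 footprints correspond to 4.88 and 5.38 FPKM. Tubb3 footprints were thus above that limit in 1 of 2 libraries, and no ratio to mRNA is given. Tubg1, the main gamma-tubulin, had mRNA of 23.1 and 19.5 FPKM and RPFs of 26.7 and 50.0 FPKM.

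Ordered by mean mRNA level, the genes ran Tuba1b, Tubb5, Tuba1c, Tuba1a, Tuba4a, Tubg1, Tubb2a, Tubb6, Tubb2b and Tubb3. Neighbours in this order did not overlap between libraries, except Tubb5 with Tuba1c and Tubb2a with Tubb6. Ordered by RPF they ran Tubb5, Tuba1c, Tuba1b, Tuba1a, Tuba4a, Tubg1, Tubb2b, Tubb2a, Tubb6 and Tubb3. There Tubg1 overlapped with Tubb2b, Tubb2b with Tubb2a, and Tubb2a with Tubb6. Levels spanned from 0.181 ± 0.0789 FPKM for Tubb3 to 345.2 ± 96.0 FPKM for Tuba1b in mRNA (mean ± SD, n = 2), and from 5.47 ± 3.94 FPKM for Tubb3 to 515.4 ± 68.9 FPKM for Tubb5 in RPF.

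**Figure D2:**
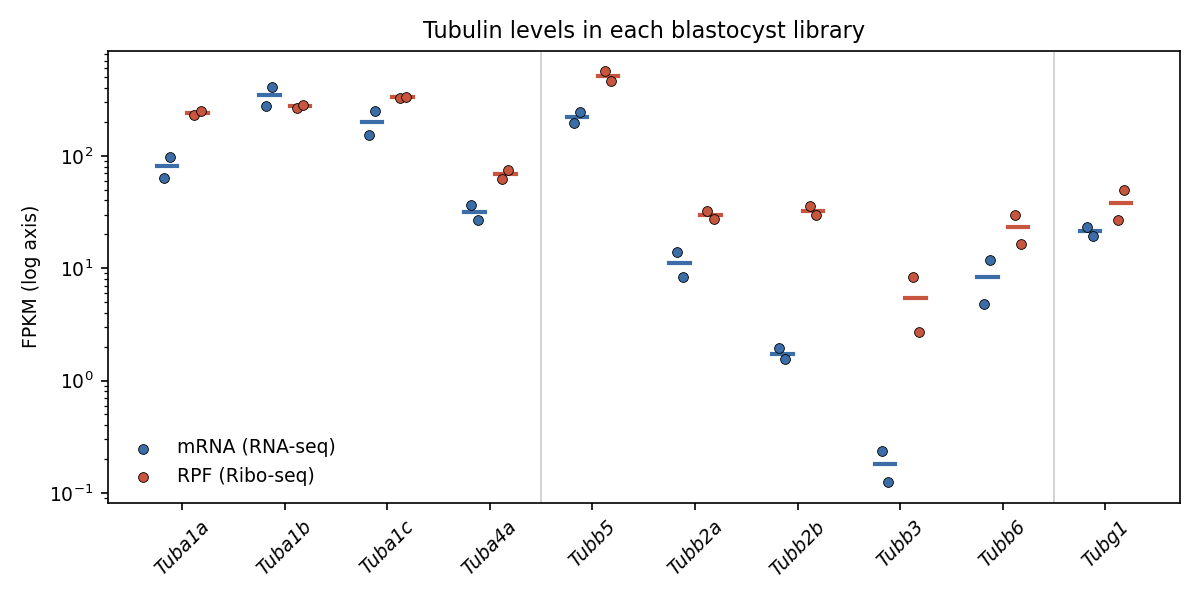
FPKM (log axis) of the 10 tubulin genes in each library; points are single libraries, blue for mRNA and red for RPF, and bars are means of 2. The Tuba1 genes are spread in mRNA and close together in RPF, Tubb2a and Tubb2b part in mRNA only, and Tubb3 sits below 1 FPKM in mRNA.

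Because levels are per length, each isotype can be given as a share of its class. Tuba1b made up 52.3 and 52.6% of the summed mRNA of the 4 alpha genes and 30.2 and 30.03% of their RPFs. Tuba1a made up 11.9 and 12.5% of the mRNA and 25.98 and 26.4% of the RPFs. Tuba1c held 28.9 and 31.5% of the mRNA and 36.9 and 35.6% of the RPFs, and Tuba4a between 3.43 and 8.02% in all libraries. For none of the 4 alpha genes did the shares from the 2 assays overlap. Those of Tuba4a came close, at 6.84 and 3.43% in mRNA and 6.96 and 8.02% in RPF. Shares of a class are tied to each other, and how many of all genes part in this way was not counted. Within an assay the shares of the 3 Tuba1 genes moved by less than 3 percentage points. Of the coding windows of these 3 genes, 81.3 to 92.4% occur in another protein-coding gene. Likeness between libraries therefore does not show that footprints were given to the right gene. What part the division of shared footprints had in these shares was not tested.

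Tubb5 made up 90.3 and 91.8% of the mRNA of the 5 beta genes and 84.2 and 86.0% of the RPFs. Tubb2b had 0.897 and 0.576% of the mRNA and 5.29 and 5.46% of the RPFs. The 5 beta genes leave out Tubb4b, an isotype of many dividing and ciliated cells, which was measured at 133.4 and 195.5 FPKM in mRNA and at 244.1 and 190.6 FPKM in RPF. Over all beta-tubulin symbols in the files, Tubb4b held 38.3 and 42.2% of the mRNA and 26.7 and 25.99% of the RPFs, and Tubb5 then held 55.7 and 53.1% of the mRNA and 61.6 and 63.7% of the RPFs. Of the Tubb4b coding windows that do not span an exon junction, 22.2% were at 1 place in the genome, beside 93.9% for Tubb5. Another protein-coding gene held 1.68% of the Tubb4b coding windows. What part these copies had in the shares was not tested. Tubb1, the platelet isotype, was listed at 0 in all 4 libraries.

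The summed alpha level was 2.46 and 2.93 times the summed beta level in mRNA, and 1.32 and 1.73 times in RPF, over the listed genes. With every alpha and beta symbol in the files the ratios were 1.53 and 1.70 in mRNA and 0.982 and 1.30 in RPF. The ratio was lower in RPF than in mRNA in all libraries by either sum, and with 2 libraries against 2 an exact permutation test cannot go below a two-sided p of 0.333.

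**Figure D3:**
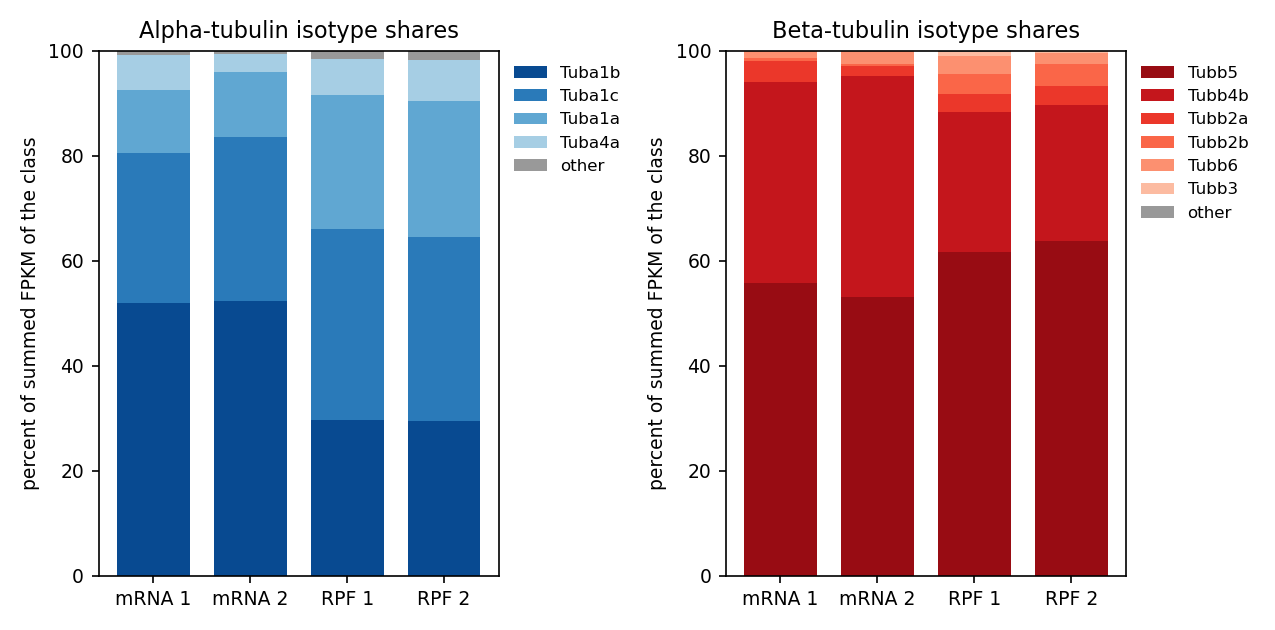
Stacked bars give each isotype's percent of the summed FPKM of all alpha (left) or all beta (right) symbols in the files, for each of the 4 libraries. Tuba1b takes the largest part of alpha mRNA but not of alpha RPFs, and Tubb5 and Tubb4b together take most of the beta class in every library.

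RPF was then tested against mRNA on log2(FPKM + 1) values, with each library centred on its median, by limma across 8327 genes with a mean of at least 1 FPKM in both assays. At an adjusted p (Benjamini-Hochberg) under 0.05 and a difference of at least 1, 12.0% of genes passed, of which 554 were higher and 442 lower in RPF. Without centring, the split was 4113 higher and 65 lower, and the median difference of all genes was 1.26. Summed levels were 519763 and 532159 FPKM in RNA-seq and 1905151 and 1960408 FPKM in Ribo-seq. All differences below are therefore relative to the median gene of each library. Of the 10 tubulin genes, 9 passed the filter (Tubb3 did not), and 2 of the 9 passed the test, 1 in each direction. Their median difference was -0.28, beside -0.24 for all genes tested. Assay and library preparation cannot be told apart in this design.

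Tuba1b was lower in RPF than in mRNA. Its centred mRNA values were 4.95 and 5.51 and its centred RPF values 3.35 and 3.51 on the log2 scale, with no overlap. The difference was -1.80 (SE 0.31, 95% interval -2.66 to -0.94, adjusted p = 0.0444 by limma), beside 5.31% of all genes called lower. Without centring it was -0.30 (adjusted p = 0.469 by limma), with a pseudocount of 0.1 the adjusted p was 0.0606, and without the first or the second RNA-seq library the adjusted p was 0.310 or 0.329. Since Tuba1b shares 90.7% of its coding windows with other genes, the 3 Tuba1 genes were also summed, a choice made after seeing the data. The sum was 494 and 759 FPKM in mRNA and 824 and 864 FPKM in RPF, and its centred difference was -1.04 (SE 0.32, 95% interval -1.92 to -0.15), which did not pass (adjusted p = 0.105 by limma).

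Tubb2b was higher in RPF than in mRNA. Its centred values were -1.62 and -1.83 in mRNA and 0.47 and 0.30 in RPF, again with no overlap. The difference was 2.11 (SE 0.25, 95% interval 1.41 to 2.81, adjusted p = 0.0290 by limma), beside 6.65% of all genes called higher. It too lost its call without the first or the second RNA-seq library (adjusted p = 0.310 and 0.329). Tubb2a and Tubb2b summed gave 15.9 and 9.97 FPKM in mRNA and 67.5 and 56.9 FPKM in RPF, with a centred difference of 0.71 (SE 0.33, 95% interval -0.20 to 1.61) that did not pass (adjusted p = 0.202 by limma).

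Some Ribo-seq values corresponded to fractions of a footprint. Of 10 Ribo-seq values of these genes that correspond to under 30 footprints, 4 lay within 0.05 of a whole number plus 0.5, 3 within 0.05 of a whole number, and 3 near neither. Tubb2a corresponded to 19.49 and 14.99 footprints in the 2 libraries and Tubb2b to 21.49 and 16.32. Tubg1 corresponded to 16.49 and 27.98 footprints, and its paralog Tubg2 to 3.498 and 6.996. Tubb6, with few shared windows, was at 18.24 and 8.995, and Tubb3 at 5.08 and 1.499. How footprints that match several genes were divided, and what part that had in the near-equal RPF levels of the Tubb2 pair and of the Tuba1 genes, was not tested.

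The other 7 genes did not pass the test, and their intervals say how large a difference could be. Tubb5 differed by -0.28 (95% interval -1.02 to 0.47, adjusted p = 0.496 by limma), which leaves room for a change of about 1 on the log2 scale in the downward direction. Tuba1a differed by 0.09 (95% interval -0.81 to 0.98) and Tubb2a by -0.14 (-1.07 to 0.80). The interval for Tuba1c reached from -1.67 to 0.18 around -0.74, and that for Tubg1 from -1.90 to 0.42 around -0.74. Tuba4a differed by -0.40 (-1.25 to 0.44). Tubb6 was the least certain, at -0.09 (-1.55 to 1.38). Tubg1 passed only without the second Ribo-seq library, at -1.22 (adjusted p = 0.0296 by limma). In that library it was 0.88 higher than in the first.

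**Figure D4:**
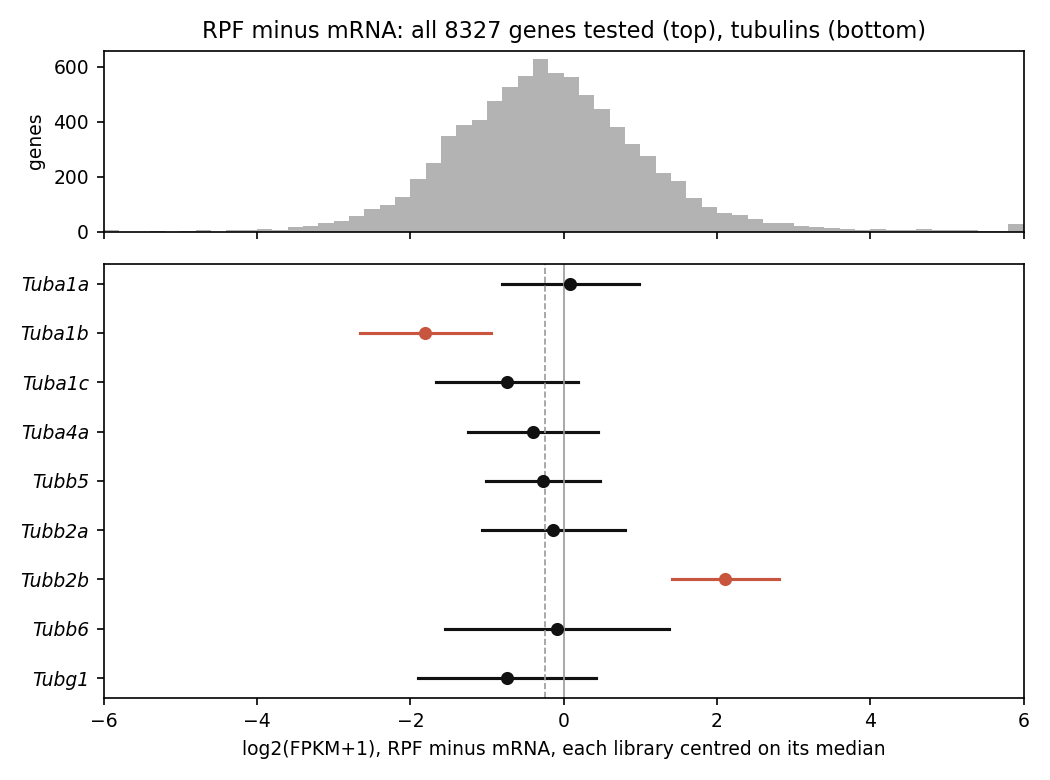
Top, number of genes by RPF minus mRNA difference of centred log2(FPKM + 1) for all 8327 genes tested, with values beyond 6 in the end bars. Bottom, the difference (point) and 95% interval (line) of the 9 tubulin genes tested, red where the test was passed; Tuba1b lies at -1.80 and Tubb2b at 2.11, and the dashed line marks the median of all genes, -0.24.

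Genes that act with tubulin were taken from 7 lists of 59 genes in all, of which 47 passed the filter. Of these, 3 were higher and 2 lower in RPF, beside 6.65 and 5.31% of all genes. The 6 tubulin folding cofactors, which assemble the dimer, were all tested and none was called, with differences from -1.29 to 0.44. Tbca, which holds beta-tubulin during folding, had the most mRNA among them (192.1 and 241.7 FPKM, with 568.5 and 511.1 FPKM in RPF) and differed by -0.18. None of 7 tested genes of the gamma-tubulin ring complex was called either. Their median difference was -1.09, and the gene with the most mRNA, the small subunit Mzt2, stood at 0.19. The 5 tested tubulins outside the 10 genes had a median of -0.999 with no call, and Tubb4b among them was at -1.09 (95% interval -1.96 to -0.22, adjusted p = 0.0948 by limma). Tubb4b passed with a minimum of 10 FPKM (adjusted p = 0.0330), with an intensity trend (0.0340) and without the first Ribo-seq library (0.0398).

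The list of microtubule dynamics and spindle genes had 3 calls among 15, beside 12.0% of all genes called in either direction. Mapre1, which encodes the plus-end tracker EB1, was measured at 17.7 and 20.3 FPKM in mRNA and at 260.1 and 395.9 FPKM in RPF, a difference of 2.51 (SE 0.34, adjusted p = 0.0324 by limma). Map4, a microtubule-stabilising protein of dividing cells, had 28.5 and 34.5 FPKM in mRNA and 340.4 and 229.6 FPKM in RPF, a difference of 1.62 (SE 0.30, adjusted p = 0.0491 by limma). Clasp2, which stabilises plus ends, went the other way, from 30.2 and 24.6 FPKM in mRNA to 8.16 and 11.4 FPKM in RPF, a difference of -2.91 (SE 0.32, adjusted p = 0.0253 by limma). All 3 calls were lost without either RNA-seq library, with adjusted p from 0.310 to 0.329 by limma. With a pseudocount of 0.1 the adjusted p was 0.0526 for Mapre1 and 0.0719 for Map4, and after quantile normalization it was 0.0622 for Map4.

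The degradation of tubulin mRNA during translation was covered by 3 genes. Ttc5, which recognises the nascent tubulin chain, was higher in RPF, with 8.88 and 6.998 FPKM in mRNA and 152.2 and 83.0 FPKM in RPF, a difference of 2.17 (SE 0.38, adjusted p = 0.0449 by limma). The other 2 genes of this list were tested and not called. Of 7 tested tubulin-modifying genes 1 was called, the glutamylase gene Ttll5, at 2.92 and 2.70 FPKM in mRNA and 1.95 and 2.15 FPKM in RPF, a centred difference of -1.82 (SE 0.25, adjusted p = 0.0318 by limma). Without centring the difference of Ttll5 was -0.32 (adjusted p = 0.321 by limma). Both its RPF levels were below the 4.87 to 5.46 FPKM that 3 footprints give in a coding sequence of tubulin length. That limit is lower in a longer coding sequence, and the coding length of Ttll5 was not measured. Whether its RPF levels lie below its own limit, and how many footprints its call rests on, was therefore not tested. Ttc5 and Ttll5 also lost their calls without either RNA-seq library, at adjusted p from 0.310 to 0.329 by limma. So did Ttc5 with a pseudocount of 0.1 (0.0645), and Ttll5 after quantile normalization (0.0730) and with an intensity trend (0.0734). None of 4 tested severing genes was called, and Katna1, the katanin catalytic subunit with the most mRNA of that list, was at -0.91.

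**Figure D5:**
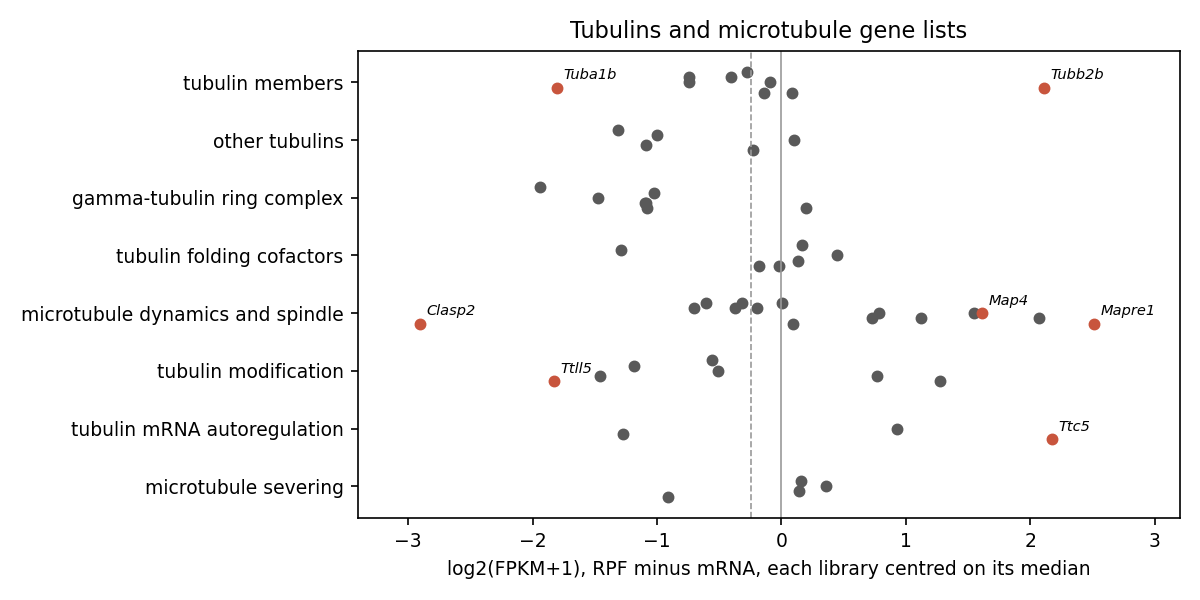
Each point is 1 gene placed by its RPF minus mRNA difference of centred log2(FPKM + 1), in rows by list; red points passed the test and are named, and the dashed line is the median of all genes tested. The 3 red points on the right outside the tubulins are Mapre1, Ttc5 and Map4, and the 2 on the left are Clasp2 and Ttll5.

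Over the 4 log2(FPKM + 1) values, the genes outside the list that lay nearest to Tubb5 were Tbca at a Euclidean distance of 0.13, Nhp2 at 0.22 and Cct8, a subunit of the chaperonin that folds tubulin and actin, at 0.25. Tbca had 192.1 and 241.7 FPKM in mRNA where Tubb5 had 194.3 and 246.3 FPKM. The nearest to Tuba1b were Ndufs7 at 0.43, Ppp1ca at 0.51 and Gstp1 at 0.55. With 2 assays and 2 libraries each, likeness over 4 values rests mostly on the mean level in each assay.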

How the data were processed

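The authors trimmed reads (Trim Galore 0.4.2 for RNA-seq, cutadapt 1.14 for Ribo-seq), removed ribosomal reads with Bowtie2 2.2.2, aligned to the mm9 transcriptome with STAR 2.5.3a, keeping reads with up to 20 places, and deposited FPKM per gene from Cufflinks 2.2.1, over transcripts for RNA-seq and coding sequence for Ribo-seq. How reads with several places were divided is not given in the sources used here. The tubulin genes and the lists were chosen with earlier results of these data known; named from each list were up to 3 genes past the threshold or, with none, the gene with the most mRNA; Tubg2 and Tubb1 were named after their values were seen. FPKM were taken as log2(value + 1), which understates differences of low genes, centred by library and tested with limma 3.58.1 in R 4.3.3 on assay alone. FPKM are not counts, so no count test was run. On simulated data with 200 genes changed by 3 on the log2 scale among 8327, the fit recovered 61% of them, and 3.17% of its calls were false. The changed genes all had a mean log2(value + 1) above 3, and both assays were given the same spread. In the data the Ribo-seq libraries differed more than the RNA-seq libraries, and both tubulin calls were smaller than the planted change. These rates may therefore not hold for the calls reported here. Fragment numbers were inferred from steps between low FPKM values, assuming fragments of 200 ± 80 bases in both assays. Footprints are shorter, near 28 bases, so Ribo-seq depths, footprint numbers and the limit of 3 footprints rest on this assumption too. Then 62.5 to 64.4% of low RNA-seq values and 83.1 to 83.3% of low Ribo-seq values came within 0.1 of a whole fragment. The numbers were chosen to make this share high, so the 20% expected for a fixed number is not its chance level. RNA-seq depth is approximate. Windows and identities were computed in Python 3.11.15 with Biopython 1.88. Alternatives changed the pseudocount, the filter, the scaling, the windows and the libraries used. Coding stretches of the alpha genes are not reported here.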

Additional observations from a re-analysis of the deposited data

How the results depend on the processing

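The calls rest on 2 libraries a side, and the number of genes called by limma (996, with 554 higher and 442 lower, and 2 of the tubulin genes) moved widely. It was 462 (308 higher, 154 lower, and of the tubulins Tubb2b but not Tuba1b) with a pseudocount of 0.1, 4492 (1396 and 3096) with no filter, 4178 (4113 and 65, 5 tubulins) with no centring and 1577 (861 and 716) with an intensity trend. With a minimum of 10 FPKM, 1126 genes were called, of which 670 were lower. Of the tubulins 1, Tuba1b, was called there, Tubb2b being below the minimum. The number of genes tested also changed, from 8327 to 13402 with no filter and 3617 with a minimum of 10 FPKM. These counts are therefore parts of unlike totals. A replicate block gave 0 calls (0 higher, 0 lower, 0 tubulins), with 2594 genes at an unadjusted p under 0.05. The deviations of same-numbered libraries correlated at r = 0.0099. Noise within libraries can hide a shared deviation, so this value does not show whether same-numbered libraries came from the same embryos. Leaving out 1 library gave 0 to 3255 calls (0 to 1268 higher, 0 to 1987 lower, 0 to 3 tubulins). The 0 belongs to leaving out either RNA-seq library, with 1293 and 1250 genes at an unadjusted p under 0.05; the lone library left is then assumed to vary like the others. Of 109 alternative values for single tubulin genes, 84 kept direction and side of the threshold, 8 lost the call, 2 gained one in the same direction and 15 changed sign, 3 of them with a call.

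Without centring, which raised the median of all genes to 1.26, Tuba1c was at 0.76, Tuba4a 1.10, Tubb5 1.23, Tubb2a 1.36, Tubb6 1.41, Tubg1 0.76, Tubb4b 0.42, Tbca 1.32 and Katna1 0.59, all changed in sign, of which Tuba4a, Tubb5, Tubb2a and Tbca were then called. Tuba1a was also called without centring, at 1.59 (adjusted p = 0.0208 by limma). Tuba1a, near 0 in the reported test, was at -0.0016 with a pseudocount of 0.1, -0.20 after quantile normalization and -0.22 to 0.39 with 1 library left out. Tubb2a was at 0.13 with no filter and -0.48 to 0.20 with 1 library left out. Tubb6 was at 0.18 with no filter and -0.65 to 0.48 with 1 library left out. Tbca was at 0.087 with no filter and Mzt2 at -0.019 after quantile normalization. Tubb2b stayed higher in RPF in 11 of 11 alternatives and Tuba1b lower in 12 of 12, with adjusted p from 0.0053 to 0.329 and from 0.0071 to 0.469 by limma.

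Over all tubulin symbols, the mean share of Tuba1b was 52.1% of alpha mRNA and 29.6% of alpha RPFs, that of Tubb5 54.4% of beta mRNA and 62.6% of beta RPFs, and the mean alpha to beta ratio 1.62 in mRNA and 1.143 in RPF. Depth limits Tubb3, Tubb6, Tubg1 and the Tubb2 genes most, each of which rests on under 30 footprints a library.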
